A study of Mus musculus with 12 samples.

Results

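The gene group described here comprised 34 inflammatory cytokines and NF-kB pathway genes, chosen by gene symbol. The list was drawn up with results of these data known, so a count of its members is no independent evidence of their direction. All 34 were found by Ensembl identifier among the 56941 genes of the count tables. NF-kB is a family of dimeric transcription factors built from Rel proteins, which inhibitor proteins (the IkB family) hold in the cytoplasm of resting cells. When receptors for TNF, IL-1 or microbial products are engaged, an upstream kinase complex marks the inhibitors for destruction, and the freed dimers enter the nucleus and activate cytokine genes together with the genes of their own inhibitors. In macrophages this circuit is known as the main switch of the inflammatory response, whereas IL-4 acts through a different factor, STAT6.

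RNA was measured in cultured macrophages of C57BL/6J mice that were either wild type (WT) or lacked miR-210 (miR-210 KO), a microRNA induced by hypoxia. Both genotypes came from matings of heterozygotes, whose deleted allele had been produced by bringing a floxed miR-210 together with a Gata-1 Cre transgene. Monocytes purified by negative selection from bone marrow were grown for 7 days with medium conditioned by L929 fibroblasts, a source of M-CSF, to give M0 macrophages, and M2 macrophages received 20 ng/mL IL-4 for a further 72 hours while control wells did not. There were 12 libraries, 3 for each genotype in each state, and no library came from cells given an inflammatory stimulus. Each group carries its own batch name in the labels, which means that group and batch cannot be told apart, and nothing ties the 3 libraries of a group to separate animals, so a p value measures only the spread between these libraries, which may be technical.

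The libraries held 7930525 to 10167695 counts, of which the 34 genes together took 0.245% to 0.328%. The deleted Mir210 gene was counted 1 to 5 times in every WT library and 0 times in every miR-210 KO library. All 8 macrophage markers examined were present in every library, with a summed level of 7516 to 10456 CPM (counts scaled to library size, for marker sums without TMM factors). The CPM of single genes given below include TMM factors over the 12 libraries. Retnla, a gene turned on by IL-4, had 0 counts in each M0 library and 2161 to 4493 counts in each M2 library. T and NK cell, mast cell, erythroid and stromal markers each summed to at most 4.59 CPM in every library, and B cell markers to 9.06 to 21.4 CPM.

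The first set of sequences that bears on this gene group is the deleted microRNA. The mature strand from RefSeq is shown with its seed, bases 2 to 8, in capitals, and below it stand the places in the annotated 3′ ends of members where a 7-base perfect match to that seed occurs, with the match in capitals.
mmu-miR-210-3p: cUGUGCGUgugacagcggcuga
Nfkb1: atgtagttgccACGCACAgacggtgtcta
Pim1: cctcacacagaACGCACAaccaatgcaaa
Of the 34 members, 2 (5.88%) held such a match after the stop codon of a protein-coding transcript, beside 1091 of 20897 genes (5.22%). A match is a description of letters, and whether the microRNA binds there was not measured.

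The second set is the promoters of members, 250 bases before to 50 bases after a RefSeq start site, searched on both strands. Entries were found for 28 members, and 12 of these (42.9%) held the kB consensus in at least 1 of their promoters, beside 9.55% of 27025 genes. The 12 were Il6, Lif, Csf1, Nfkb2, Rel, Nfkbia, Nfkbid, Nfkbie, Tnfaip3, Tnfaip2, Tnip1 and Ier3, and 5 of them are Rel family or inhibitor genes. The AP-1 site TGANTCA was present in 7 of 28 (25.0%) against 8.97% of genes, the STAT6-type site in 3 (10.7%) against 8.01%, and the related site TTCNNNGAA in 5 (17.9%) against 9.55%. Shown here are the windows of 4 members that rose with IL-4 in both genotypes, together with Nfkbia, the classical inhibitor, which did not. Each is given 5′ to 3′ on the strand of its gene, with kB matches in capitals. Each was located in GRCm39 by an exact match, the only one in that orientation on its chromosome. Other chromosomes were not searched.
Rel (chr11:23720920-23721219, minus strand): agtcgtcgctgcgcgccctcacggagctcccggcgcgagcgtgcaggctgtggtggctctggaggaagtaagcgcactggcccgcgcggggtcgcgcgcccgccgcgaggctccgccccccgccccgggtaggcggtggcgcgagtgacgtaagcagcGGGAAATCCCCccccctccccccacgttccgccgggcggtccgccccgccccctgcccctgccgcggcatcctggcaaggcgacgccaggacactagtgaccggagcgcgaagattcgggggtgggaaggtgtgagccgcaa
Nfkbid (chr7:30121581-30121880, plus strand): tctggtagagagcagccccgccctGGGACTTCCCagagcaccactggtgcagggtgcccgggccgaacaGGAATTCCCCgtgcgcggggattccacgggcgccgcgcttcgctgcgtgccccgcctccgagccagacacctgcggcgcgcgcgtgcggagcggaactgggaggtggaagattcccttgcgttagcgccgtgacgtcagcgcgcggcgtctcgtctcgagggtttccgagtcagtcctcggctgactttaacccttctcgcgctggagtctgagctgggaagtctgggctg
Nfkbie (chr17:45866376-45866675, plus strand): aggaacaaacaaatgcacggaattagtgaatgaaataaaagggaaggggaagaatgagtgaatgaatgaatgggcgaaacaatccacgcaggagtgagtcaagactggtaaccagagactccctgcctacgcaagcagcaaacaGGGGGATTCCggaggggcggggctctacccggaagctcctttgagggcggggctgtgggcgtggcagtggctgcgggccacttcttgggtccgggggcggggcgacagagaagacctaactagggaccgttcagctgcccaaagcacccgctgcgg
Ier3 (chr17:36132355-36132654, plus strand): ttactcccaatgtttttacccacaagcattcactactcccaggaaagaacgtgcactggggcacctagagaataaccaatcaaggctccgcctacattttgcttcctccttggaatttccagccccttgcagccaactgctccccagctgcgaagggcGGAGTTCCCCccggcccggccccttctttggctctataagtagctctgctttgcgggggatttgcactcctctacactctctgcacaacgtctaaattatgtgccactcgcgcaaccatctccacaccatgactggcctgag
Nfkbia (chr12:55539383-55539682, minus strand): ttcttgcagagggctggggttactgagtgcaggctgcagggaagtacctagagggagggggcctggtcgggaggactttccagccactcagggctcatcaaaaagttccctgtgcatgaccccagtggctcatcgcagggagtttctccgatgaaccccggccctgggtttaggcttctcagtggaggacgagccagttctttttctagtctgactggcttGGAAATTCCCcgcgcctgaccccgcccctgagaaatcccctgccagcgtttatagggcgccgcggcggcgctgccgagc
The Rel window carries overlapping matches in 1 run of capitals, and the Nfkbid window carries 2 separate matches. The Nfkbid windows that start at 30120906 and 30122450 held 0 kB matches and are not printed. Csf1 and Tnfaip3 also held a match and rose with IL-4 in both genotypes. Tnip1, with 3 overlapping matches in its window, fell in both. Whether a match goes with a change under IL-4 was not tested.

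Per kilobase of exon, the members spanned from abundant early-response genes to cytokines at the limit of detection. Pim1, a serine/threonine kinase gene, stood at 68.0 ± 5.50 RPKM (the level divided by exon length, SD, n = 3) in WT M0. Ier3, an early-response gene of NF-kB, stood at 61.8 ± 5.92 RPKM and Tnfaip2, a TNF-inducible gene, at 60.4 ± 6.12 RPKM in the same group, so the order of these 3 was within their spread. Tnf reached 45.9 ± 11.8 RPKM and Il1rn, which encodes the IL-1 receptor antagonist, 46.0 ± 11.5 RPKM. The order depends on the length used, since by its longest transcript Il1rn stood at 99.7 RPKM in WT M0, above Pim1 at 83.9 RPKM. In contrast, Il1b, the gene of IL-1β, stood at 0.398 ± 0.109 RPKM in WT M0 and at no more than 0.859 ± 0.820 RPKM in any group.

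At the lower end, Il6 had 0 to 7 counts in each library, Il12b 0 to 4, Il23a 0 to 1 and Lif 0 to 8. Of these, Il6 had 2, 0 and 0 counts in the WT libraries of M0, 2, 1 and 0 in those of miR-210 KO, 2, 5 and 7 in WT M2, and 1, 2 and 2 in miR-210 KO M2. These 4 genes did not pass the filter on low counts in any comparison, and a count of 0 allows up to 3 counts, so differences in them were not detectable at this depth. Il10, an anti-inflammatory cytokine, passed the filter in each comparison that included M0 libraries but not between the M2 groups, where it had 5 to 10 counts in each library. This leaves 30 members tested in M0 and in both polarization comparisons, and 29 in M2.

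Before the comparisons, 3 libraries have to be named, because members stood apart in them. In library 3 of miR-210 KO M0, 7 of 30 members lay more than 1.5 times above the mean of the other 2 libraries of the group, beside 3.48% of all genes, and the members took 0.328% of its counts. Zfp36, which encodes a protein that destroys cytokine mRNA, was at 328 CPM there against 95.9 and 83.2 CPM in the other 2. Osm, the gene of the cytokine oncostatin M, was at 53.9 CPM against 16.8 and 13.6 CPM. The other 5 were Il1b, Il10, Nfkbiz, Pim1 and Ier3. In library 2 of the same group, 7 of 30 members lay below 0.67 times the mean of the other 2, beside 3.51% of all genes, and the members' median ratio was 0.846. That mean includes library 3.

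Immediate early genes, which are transcribed within minutes of a stimulus, moved with the members in library 3 of miR-210 KO M0. Fos was at 909 CPM there and at 82.0 and 79.97 CPM in the other 2 libraries of the group, and Egr1 at 265 CPM against 3.22 and 2.94 CPM. Of 10 immediate early genes listed after this library had been seen, 8 were more than 3 times above the mean of the other 2 libraries, and Jun and Atf3 were at 1.14 and 1.36 times it. In library 3 of WT M2, 6 of 29 members were more than 1.5 times above the other 2 libraries, beside 2.99% of all genes, namely Il1b (4.68 times), Tnf (1.83 times), Il1a, Nfkbie, Csf1 and Il1rn, and Osm lay below at 0.616 times. The immediate early genes did not stand out there, with ratios of 0.740 to 1.42. Where leaving out 1 of these libraries changed the call of a member, the value without it is given below.

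**Figure D1:**
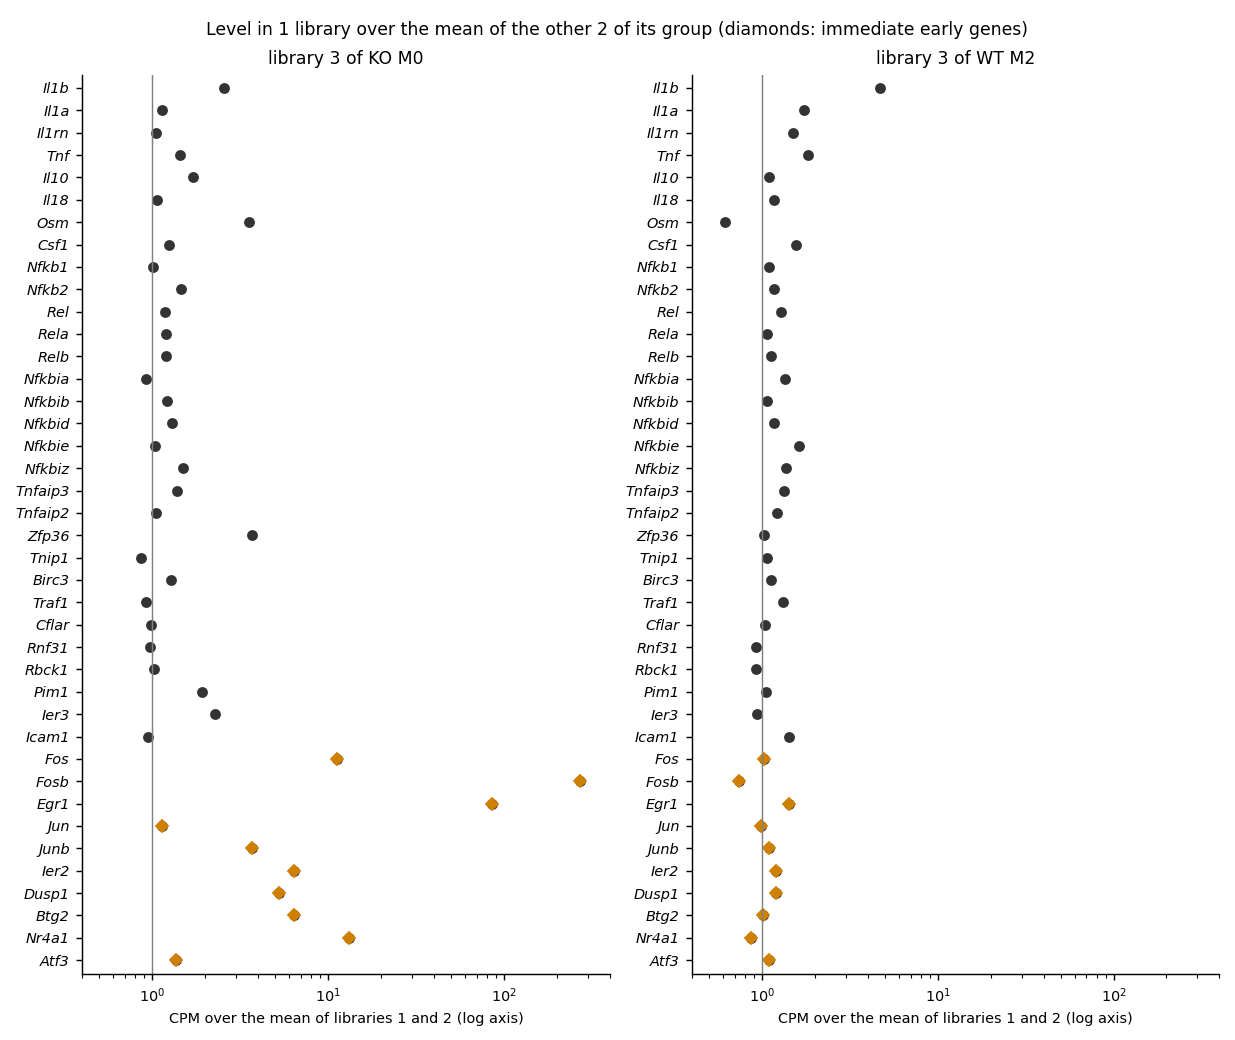
Level (CPM) of each member measured in 1 library divided by the mean of the other 2 libraries of its group, on a log axis, for library 3 of KO M0 (left) and library 3 of WT M2 (right), with members as circles and immediate early genes as diamonds. On the left, Zfp36 (3.67), Osm (3.55) and Ier3 (2.27) lie high together with Fos (11.2) and Egr1 (86), and on the right Il1b (4.68) and Tnf (1.83) lie high while Fos (1.02) does not.

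The first comparison asks how loss of miR-210 altered resting macrophages. None of the 30 members tested passed in M0 (edgeR's quasi-likelihood test, Benjamini-Hochberg adjusted p under 0.05 over 14089 genes and a change of more than 1.2-fold), where 0.22% of all genes were called higher and 0.241% lower in miR-210 KO. The DESeq2 Wald test called 218 of the 14089 genes, against 65 with edgeR, and 1 member, Tnfaip2. An unadjusted p under 0.05 was obtained for 7 of the 30, beside 10% of all genes tested. The members' median log2 difference was 0.15, with 21 above 0 and 9 below, beside a median of 0.00 over all genes tested. Without library 3 of miR-210 KO M0 the median was 0.04, with 16 above 0 and 14 below.

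The cytokines that were measured in M0 gave the following levels. Tnf, on chromosome 17 (GRCm39, 35418357 to 35420983, minus strand), was at 52.9, 87.2 and 85.7 CPM in WT M0 and at 110.2, 80.6 and 136.9 CPM in miR-210 KO M0. The groups overlapped, and the log2 difference was 0.53 ± 0.20 (SE, edgeR adjusted p = 0.378), or 0.33 ± 0.20 without library 3 of miR-210 KO M0 (adjusted p = 0.777). Il1b, on chromosome 2 (129206490 to 129213059, minus strand), was at 1.27, 0.722 and 1.11 CPM in WT M0 and at 1.22, 0.570 and 2.29 CPM in miR-210 KO M0, which is 6 to 23 counts a library. Its groups overlapped as well, with a log2 difference of 0.40 ± 0.48 (edgeR adjusted p = 0.841), and without library 3 the value turned to -0.22 ± 0.48 (adjusted p = 0.964).

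Il1a, the gene of IL-1α, was the cytokine whose M0 groups did not overlap among those tested. It was at 5.08, 3.20 and 3.95 CPM in WT M0 and at 7.89, 6.36 and 8.05 CPM in miR-210 KO M0, a log2 difference of 0.88 ± 0.22 that did not pass the adjustment (edgeR adjusted p = 0.132). Tnfaip2 was the other tested member with every miR-210 KO library above every WT library, at 331, 271 and 309.5 CPM in WT M0 and at 421, 353 and 408 CPM in miR-210 KO M0 (log2 difference 0.38 ± 0.10, adjusted p = 0.165). Together they were 2 of 30 members, or 6.67%, and 7.13% of all genes tested were arranged in the same way. The reverse arrangement held for 1 member, Rnf31, and for 7.3% of all genes.

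Zfp36, on chromosome 7 (28076209 to 28079710, minus strand), showed how far 1 library could set a value in M0. It was at 149, 138 and 145 CPM in WT M0 and at 95.9, 83.2 and 328 CPM in miR-210 KO M0, so 2 miR-210 KO libraries lay below and 1 above all of WT. The log2 difference was 0.24 ± 0.40 over all libraries (edgeR adjusted p = 0.9) and turned to -0.69 ± 0.11 without library 3 (adjusted p = 0.0286). Pim1, on chromosome 17 (29709581 to 29715086, plus strand), also moved with that library, at 254, 217 and 245 CPM in WT M0 and 233, 197 and 414.5 CPM in miR-210 KO M0, where 1 miR-210 KO library lay above all of WT and 1 below. Its log2 difference of 0.24 ± 0.22 (adjusted p = 0.773) turned to -0.15 ± 0.11 without library 3 (adjusted p = 0.87). Osm moved from 1.05 ± 0.42 to 0.15 ± 0.16 on the log2 scale, and Ier3 from 0.65 ± 0.27 to 0.14 ± 0.12, when that library was left out.

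In M0 a neutrophil marker also differed between the genotypes. The 8 neutrophil markers summed to 62.9 to 88.8 CPM in the WT libraries of M0 and to 111 to 140 CPM in the miR-210 KO libraries. Nearly all of this was Mmp8, with 604 to 824 counts in the WT libraries and 1113 to 1226 in those of miR-210 KO. Ly6g, a defining marker, had 0 counts in every library, and 5 to 6 of the 8 markers were at 0 in the miR-210 KO M0 libraries. In bulk RNA fewer cells of a kind and less RNA per cell cannot be told apart, and the part of these markers in the M0 values was not tested.

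In M2 macrophages, 3 members were lower in miR-210 KO M2 than in WT M2 and none was higher. They were Il1rn, Zfp36 and Rnf31, which is 3 of 29 members tested, where 0.572% of all 13980 genes tested were called lower and 0.408% higher. Zfp36 and Rnf31 had already been named from these libraries when the list was made, so the comparison of these shares is a description and not a test. The 3 genes encode a receptor antagonist, an mRNA-destabilizing protein and a ubiquitin ligase, and none is itself an inflammatory cytokine. The median log2 difference of the 29 members was -0.15, with 24 below 0 and 5 above, beside a median of 0.00 over all genes. Unadjusted p values under 0.05 were obtained for 11 of the 29 and for 10.7% of all genes. Without library 3 of WT M2 the median was -0.09, with 20 below 0 and 9 above, and no member was called.

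Il1rn, on chromosome 2 (24226865 to 24241506, plus strand), was at 272, 252 and 395 CPM in WT M2 and at 200.5, 197 and 224 CPM in miR-210 KO M2. Every miR-210 KO library was below every WT library, and the level was 0.679 times that of WT (log2 difference -0.56 ± 0.12, edgeR adjusted p = 0.0358). Without library 3 of WT M2, the highest, the log2 difference was -0.33 ± 0.07 with an adjusted p of 0.0652 by the same test. It was also not called without library 1 or 2 of miR-210 KO M2 (adjusted p = 0.16 and 0.253), nor by the DESeq2 Wald test.

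Zfp36 was at 151, 156 and 157 CPM in WT M2 and at 131, 126 and 117 CPM in miR-210 KO M2. The groups did not overlap, and the level in miR-210 KO was 0.808 times that of WT (log2 difference -0.31 ± 0.06, edgeR adjusted p = 0.0203). Zfp36 encodes tristetraprolin, which binds AU-rich stretches of cytokine mRNAs, that of Tnf included, and speeds their decay. Library 3 of WT M2 lay close to library 2, at 157 and 156 CPM. Without library 3 the log2 difference was -0.30 ± 0.07, although the edgeR adjusted p rose to 0.113. The call was also lost without library 1 or 2 of WT M2 (edgeR adjusted p = 0.0641 and 0.0546) or library 1 or 2 of miR-210 KO M2 (0.0506 and 0.0956), while the log2 difference stayed between -0.34 and -0.30 in these fits.

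Rnf31, on chromosome 14 (55828443 to 55841309, plus strand), encodes HOIP, the catalytic subunit of the complex that builds linear ubiquitin chains and through them activates the kinases upstream of NF-kB. It was at 44.1, 46.5 and 42.0 CPM in WT M2 and at 36.1, 32.7 and 31.0 CPM in miR-210 KO M2, without overlap (0.754 times WT, log2 difference -0.41 ± 0.08, edgeR adjusted p = 0.025). In M0 the groups were arranged in the same way, at 69.4, 55.9 and 64.1 CPM in WT and 46.2, 52.5 and 48.1 CPM in miR-210 KO, with a log2 difference of -0.36 ± 0.10 that did not pass (adjusted p = 0.184). The M2 call was lost without any 1 of the WT libraries (adjusted p = 0.0848, 0.0844 and 0.0562) or without library 2 of miR-210 KO (0.141). The difference between the states was -0.05 ± 0.13 on the log2 scale (interaction term, adjusted p = 0.945). Rbck1, the gene of HOIL-1 in the same complex, gave -0.13 ± 0.07 in M2 (adjusted p = 0.52) and -0.04 ± 0.09 in M0 (adjusted p = 0.932), and Sharpin, the gene of the third subunit, gave -0.09 ± 0.08 (adjusted p = 0.771) and -0.05 ± 0.11 (adjusted p = 0.92).

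Tnf and Pim1 came close to the threshold in M2. Tnf was at 53.0, 49.1 and 93.3 CPM in WT M2 and at 38.4, 35.8 and 42.5 CPM in miR-210 KO M2, so the groups were separate, with a log2 difference of -0.73 ± 0.18 and an edgeR adjusted p of 0.0643. Without library 3 of WT M2 it was -0.39 ± 0.09 (adjusted p = 0.117), and it was called without library 2 of WT M2 (-0.91, adjusted p = 0.00905) or library 3 of miR-210 KO M2 (-0.80, adjusted p = 0.0363). Pim1 was at 336, 354 and 367 CPM in WT M2 and at 308, 303 and 279.6 CPM in miR-210 KO M2, again without overlap (-0.24 ± 0.06, adjusted p = 0.0532). Its log2 difference lay inside the limit of 1.2-fold, so it would not have been called at a smaller p either.

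Il1b in M2 again turned on 1 library. It was at 1.06, 0.946 and 4.69 CPM in WT M2 and at 1.22, 1.46 and 0.625 CPM in miR-210 KO M2, and these groups overlapped. The log2 difference was -0.93 ± 0.55 (edgeR adjusted p = 0.607) with library 3 of WT M2 and 0.17 ± 0.44 (adjusted p = 0.966) without it.

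More members had separate groups than were called. In M2, 12 of the 29 members tested (41.4%) had every miR-210 KO library below every WT library, beside 8.52% of all genes, and 0 had every one above, beside 7.52% of all genes. They were the 3 called genes with Tnf, Pim1 and Rbck1, the growth factor gene Csf1, the Rel family genes Nfkb1, Rela and Relb, and the inhibitor genes Nfkbia and Nfkbie. Most of these differences were small, from -0.11 ± 0.07 on the log2 scale in Rela to -0.47 ± 0.18 in Csf1 among the 6 that were neither called nor given a value above, and their edgeR adjusted p values ran from 0.162 to 0.608. Icam1, the gene of an adhesion molecule, had a log2 difference of -0.44 ± 0.13 (adjusted p = 0.164) with groups that overlapped. Zfp36, Rnf31 and Pim1 had been named from these libraries when the list was made. The shares of members with separate groups are therefore a description and not a test.

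The Rel family can be followed gene by gene. Nfkb1, the gene of p105 and p50, differed by -0.15 ± 0.06 in M2 (edgeR adjusted p = 0.345) and by -0.04 ± 0.08 in M0 (adjusted p = 0.911). Relb, of the noncanonical arm, differed by -0.27 ± 0.09 in M2 (adjusted p = 0.232) and by 0.20 ± 0.11 in M0 (adjusted p = 0.583). Rela, the gene of p65, differed by 0.00 ± 0.09 in M0 (adjusted p = 0.996), and lay between 64.8 and 76.0 CPM in the 6 M2 libraries. Nfkb1 and Pim1, the members with a match to the miR-210 seed shown above, had every miR-210 KO M2 library below every WT M2 library, and neither was called.

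**Figure D2:**
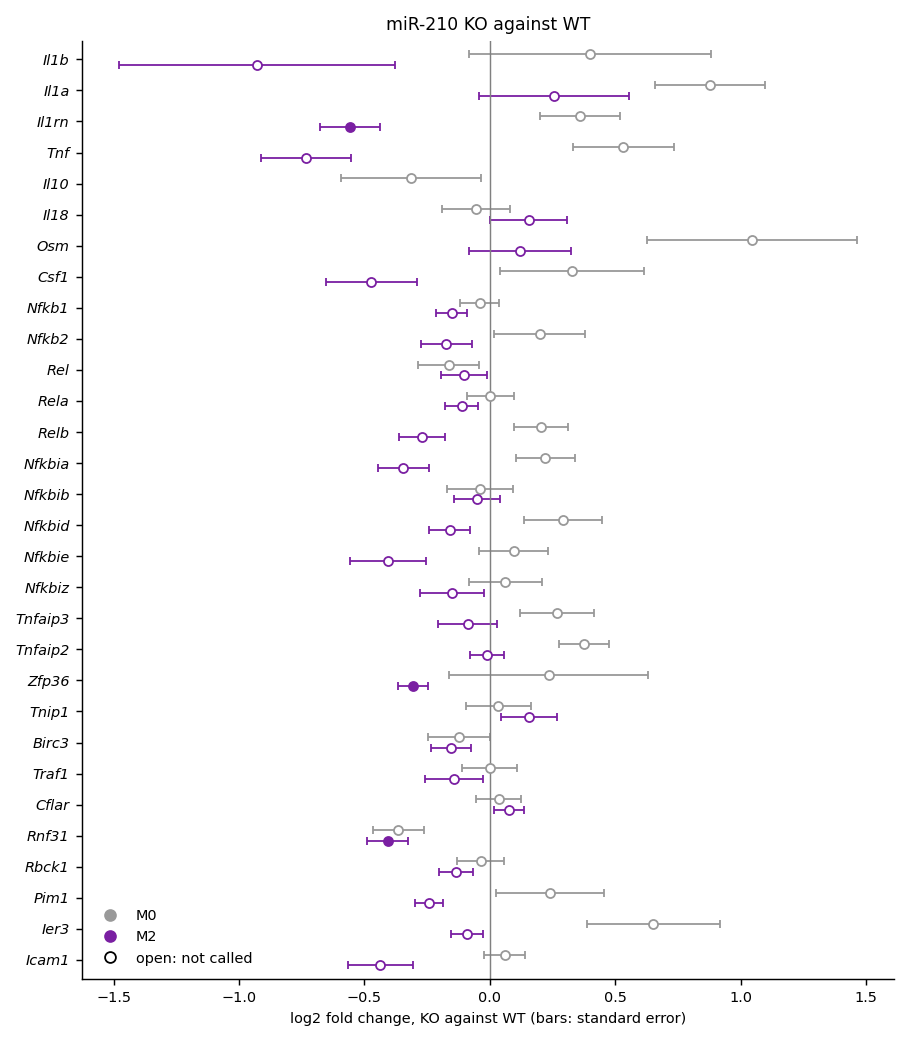
Log2 fold change of miR-210 KO against WT with its standard error for the 30 members tested, in M0 (grey) and M2 (purple), filled where the gene was called. In M2 24 of 29 values lie below 0, with Il1rn, Zfp36 and Rnf31 filled, and in M0 21 of 30 lie above 0 with none filled.

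Whether the genotype difference changed between the states was tested over all 12 libraries with an interaction term. No gene passed, member or other, so the share called was 0% in each direction over the 14825 genes tested (edgeR, adjusted p under 0.05 with no limit on the fold), whereas the DESeq2 Wald test called 92 of the 14825 genes and 0 members. An unadjusted p under 0.05 was obtained for 9 of 30 members and for 8.95% of all genes. Of the 30 members 25 had a negative interaction value, with a median of -0.38 beside 0.00 over all genes. The largest among those with an unadjusted p under 0.05 were Tnf at -1.27 ± 0.32 (adjusted p = 0.188) and Il1rn at -0.92 ± 0.24 (adjusted p = 0.19). With library 3 of miR-210 KO M0 and library 3 of WT M2 both left out, an alternative chosen after seeing the data, 20 of 30 were negative with a median of -0.09, and Tnf was at -0.74 ± 0.25 (adjusted p = 0.64). Without library 2 of miR-210 KO M0 alone, Tnf passed at -1.45 (adjusted p = 0.0415). The interaction is also the difference between the polarization responses of the genotypes given next, and rests on the same libraries.

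M2 was next compared with M0 within each genotype. In WT macrophages 18 of 30 members were called between M2 and M0 (the limits above, and an average normalized count over 10 in a protein-coding gene), 11 higher and 7 lower, beside 23.6% of 11135 genes called higher and 21.8% lower. In miR-210 KO macrophages 20 of 30 were called, 7 higher and 13 lower, beside 18.5% of 11116 genes higher and 18.1% lower. The median log2 change of the members was 0.12 in WT and -0.17 in miR-210 KO. Single libraries moved both, to 0.04 in WT without library 3 of WT M2, and in miR-210 KO to 0.01 without library 3 and to -0.26 without library 2 of miR-210 KO M0. An unadjusted p under 0.05 (edgeR) was obtained for 20 of 30 members in each genotype, beside 53.8% of all genes tested in WT and 43.5% in miR-210 KO. The list was drawn up with results known, so these counts are not read as a result about the members. The numbers called rest on the same M0 and M2 libraries as the genotype comparisons above.

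Among the cytokines, Il10 fell furthest. It was at 13.1, 6.39 and 9.72 CPM in WT M0 and at 1.18, 0.631 and 0.988 CPM in WT M2, a log2 change of -3.36 ± 0.34 (edgeR adjusted p = 2.22e-06). In miR-210 KO it went from 5.89, 6.65 and 10.6 CPM to 0.978, 0.835 and 0.625 CPM (-3.23 ± 0.34, adjusted p = 7.46e-06). IL-10 protein limits cytokine production, and its mRNA in M2 was 0.0975 times the M0 level in WT and 0.107 times in miR-210 KO. The M2 side of both ratios rests on 5 to 10 counts in each library. Il10 passed the filter on low counts only through its M0 libraries, where it was high, so the size of its fall is a description.

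Osm fell from 14.0, 12.8 and 14.2 CPM to 7.53, 6.52 and 4.32 CPM in WT (-1.14 ± 0.17, edgeR adjusted p = 0.000109). In miR-210 KO it went from 16.8, 13.6 and 53.9 CPM to 7.83, 6.68 and 5.50 CPM (-2.07 ± 0.46, adjusted p = 0.00321), and this larger change came down to -1.19 ± 0.19 without library 3 of miR-210 KO M0 (adjusted p = 0.000397). Every M2 library was below every M0 library in both genotypes. Il18, whose product is a cytokine of the IL-1 family, fell from 15.0, 12.2 and 15.2 CPM to 7.41, 7.99 and 9.02 CPM in WT (-0.79 ± 0.14) and from 13.6, 13.0 and 14.1 CPM to 8.80, 10.3 and 7.75 CPM in miR-210 KO (-0.59 ± 0.15).

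Over all libraries, Tnf, Il1a and Il1rn were called lower in miR-210 KO and not in WT. Tnf fell there by 1.49 on the log2 scale (SE 0.16, edgeR adjusted p = 9.8e-06), with every M2 library below every M0 library, and gave -0.22 ± 0.22 in WT (adjusted p = 0.441), where the groups overlapped. Without library 3 of WT M2, however, Tnf was called lower in WT too, at -0.56 ± 0.17 (adjusted p = 0.0222). Il1a fell from 7.89, 6.36 and 8.05 CPM to 1.96, 3.97 and 2.999 CPM in miR-210 KO (-1.30 ± 0.25, adjusted p = 0.00114) and went from 5.08, 3.20 and 3.95 CPM to 2.24, 1.89 and 3.58 CPM in WT (-0.66 ± 0.27, adjusted p = 0.0628, or -0.96 ± 0.29 with an adjusted p of 0.0196 without library 3 of WT M2). It was called in WT without library 2 of WT M0 too (-0.81, adjusted p = 0.0243). Il1rn fell by 0.66 in miR-210 KO (adjusted p = 0.000333) and gave 0.27 ± 0.17 in WT (adjusted p = 0.208), where it was called higher without library 1 of WT M0 (0.49, adjusted p = 0.0155). Over all libraries the interaction terms of these 3 genes did not pass, so a difference in their IL-4 response between the genotypes was not shown.

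Csf1, the gene of the growth factor M-CSF, was the cytokine called higher over all libraries, in both genotypes. It went from 3.81, 2.27 and 2.63 CPM to 8.59, 8.73 and 13.6 CPM in WT (1.84 ± 0.24, edgeR adjusted p = 3.04e-05) and from 4.11, 2.56 and 4.18 CPM to 7.21, 6.995 and 7.87 CPM in miR-210 KO (1.03 ± 0.22, adjusted p = 0.00257). Every M2 library was above every M0 library in both genotypes. The interaction was -0.81 ± 0.35 (adjusted p = 0.502). Il1b was called in neither genotype, at 1.08 ± 0.57 in WT and -0.27 ± 0.49 in miR-210 KO (edgeR adjusted p = 0.14 and 0.715). In WT it was called higher without library 2 of WT M2 (1.47, adjusted p = 0.0426). Without library 3 of WT M2 it was at -0.02 ± 0.41 (adjusted p = 0.975).

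Within the Rel family, Rel and Nfkb1 rose in both genotypes, and Rela was called in neither (0.06 ± 0.07 in WT and -0.06 ± 0.09 in miR-210 KO). Rel, the gene of c-Rel, went from 92.3, 102 and 80.6 CPM to 211, 193 and 260.3 CPM in WT (1.28 ± 0.11, edgeR adjusted p = 5e-07) and from 68.4, 85.9 and 91.0 CPM to 202, 190.3 and 224 CPM in miR-210 KO (1.33 ± 0.11, adjusted p = 7.83e-07). Nfkb1 went from 90.4, 97.5 and 90.0 CPM to 169, 171 and 186 CPM in WT (0.93 ± 0.07) and from 90.6, 89.1 and 90.7 CPM to 165, 151.5 and 155 CPM in miR-210 KO (0.80 ± 0.07, adjusted p = 2.52e-06). Every M2 library was above every M0 library for both genes, and in miR-210 KO M2 the Rel and Nfkb1 transcripts stood at 2.51 and 1.75 times their M0 level. Nfkb2 and Relb, which form the noncanonical dimer, were called higher in WT (0.72 ± 0.12 and 0.57 ± 0.10) but not in miR-210 KO (0.34 ± 0.16 and 0.08 ± 0.10, adjusted p = 0.12 and 0.587). Nfkb2 joined the calls in miR-210 KO when library 3 of its M0 group was left out (0.54, adjusted p = 0.0134). The interaction terms of Nfkb2 and Relb, -0.37 ± 0.22 and -0.48 ± 0.15, did not pass (edgeR adjusted p = 0.648 and 0.286). A difference in their IL-4 response between the genotypes was therefore not shown.

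Among the inhibitor genes, Nfkbid and Nfkbie rose in both genotypes and Nfkbiz fell in both. Nfkbid, the gene of the nuclear inhibitor IkBNS, went from 17.9, 21.1 and 17.6 CPM to 54.8, 51.6 and 62.4 CPM in WT (1.58 ± 0.10, edgeR adjusted p = 3.08e-08) and from 24.2, 18.0 and 27.4 CPM to 50.4, 52.1 and 47.6 CPM in miR-210 KO (1.11 ± 0.13, adjusted p = 2.4e-05). Nfkbie, the gene of the cytoplasmic IkBε, went from 16.8, 23.5 and 17.8 CPM to 40.4, 39.01 and 64.9 CPM in WT (1.30 ± 0.18, adjusted p = 5.8e-05) and rose by 0.80 ± 0.10 in miR-210 KO (adjusted p = 5.97e-05). Every M2 library was above every M0 library for both genes, and 1 promoter window of each is printed above.

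Nfkbiz encodes IkBζ, a nuclear cofactor that many secondary response genes need, and went from 98.1, 104 and 111 CPM to 17.9, 20.3 and 26.1 CPM in WT (-2.28 ± 0.11, edgeR adjusted p = 1.66e-09) and from 92.7, 93.8 and 140.3 CPM to 20.5, 18.0 and 19.1 CPM in miR-210 KO (-2.51 ± 0.16, adjusted p = 7.35e-08). Nfkbib was not called in either genotype. Nfkbia, the gene of IkBα, was called lower in miR-210 KO only (-0.39 ± 0.10, adjusted p = 0.00893, against 0.19 ± 0.12 in WT, adjusted p = 0.227), with an interaction of -0.57 ± 0.17 that did not pass (adjusted p = 0.277).

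Of the early-response and feedback genes, Ier3 and Tnfaip3 rose in both genotypes. Ier3 went from 64.1, 77.5 and 69.6 CPM to 201, 223 and 197 CPM in WT (1.56 ± 0.08, edgeR adjusted p = 3.43e-09). In miR-210 KO it went from 83.2, 72.1 and 176 CPM to 201, 201 and 179.8 CPM (0.81 ± 0.25, adjusted p = 0.0225), which became 1.31 ± 0.11 without library 3 of the M0 group (adjusted p = 1.77e-06). Tnfaip3, the gene of the deubiquitinase A20, rose by 0.81 ± 0.13 in WT and by 0.45 ± 0.14 in miR-210 KO (adjusted p = 0.000179 and 0.0243). In miR-210 KO neither call held in every fit with 1 library left out. That of Ier3 was lost without library 1 of M0 or library 1 or 2 of M2 (adjusted p = 0.064, 0.0695 and 0.064), and that of Tnfaip3 without library 1 or 2 of M0 or library 2 or 3 of M2 (adjusted p = 0.0595, 0.0679, 0.0758 and 0.107). Pim1 and Tnfaip2 were called higher in WT (0.57 ± 0.07 and 0.33 ± 0.09) and not in miR-210 KO (0.08 ± 0.20 and -0.07 ± 0.08), and without library 3 of miR-210 KO M0 Pim1 was called there as well (0.45 ± 0.10, adjusted p = 0.0047). Tnfaip2 was not called in WT without library 2 of WT M0 (0.25, inside the limit of 1.2-fold) or library 3 of WT M2 (0.23, adjusted p = 0.0533). The interaction terms of Pim1 and Tnfaip2, -0.49 ± 0.25 and -0.39 ± 0.13, did not pass (edgeR adjusted p = 0.603 and 0.32).

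Zfp36 was not called by polarization in either genotype over all libraries. In miR-210 KO its log2 change of -0.44 ± 0.39 (edgeR adjusted p = 0.421) turned to 0.46 ± 0.10 without library 3 of the M0 group (adjusted p = 0.00466). Among the survival and ubiquitin genes, 3 fell in both genotypes. Cflar, which encodes the caspase-8 inhibitor c-FLIP, fell by 0.51 in WT and 0.49 in miR-210 KO, Rnf31 by 0.50 and 0.56, and Tnip1, which encodes an A20-binding protein, by 0.62 and 0.51. Tnip1 went from 28.7, 38.1 and 30.6 CPM to 22.8, 18.4 and 22.1 CPM in WT. Traf1 (-0.44 ± 0.11) and Icam1 (-0.56 ± 0.11) were called lower in miR-210 KO, with -0.29 ± 0.12 and -0.06 ± 0.12 in WT. Without library 3 of WT M2, Traf1 was called lower in WT too (-0.43, adjusted p = 0.00792). The interaction terms of Traf1 and Icam1, -0.15 ± 0.17 and -0.50 ± 0.18, did not pass (edgeR adjusted p = 0.835 and 0.356). Birc3, Rbck1, Rela and Nfkbib were called in neither genotype. Zbtb46, a dendritic cell marker, rose with IL-4 from 2 to 6 counts in M0 to 88 to 143 counts in M2 libraries, while Flt3, Siglech and Clec9a stayed at no more than 3 counts and Xcr1 and Ccr7 at no more than 11, and its part in these changes was not tested.

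**Figure D3:**
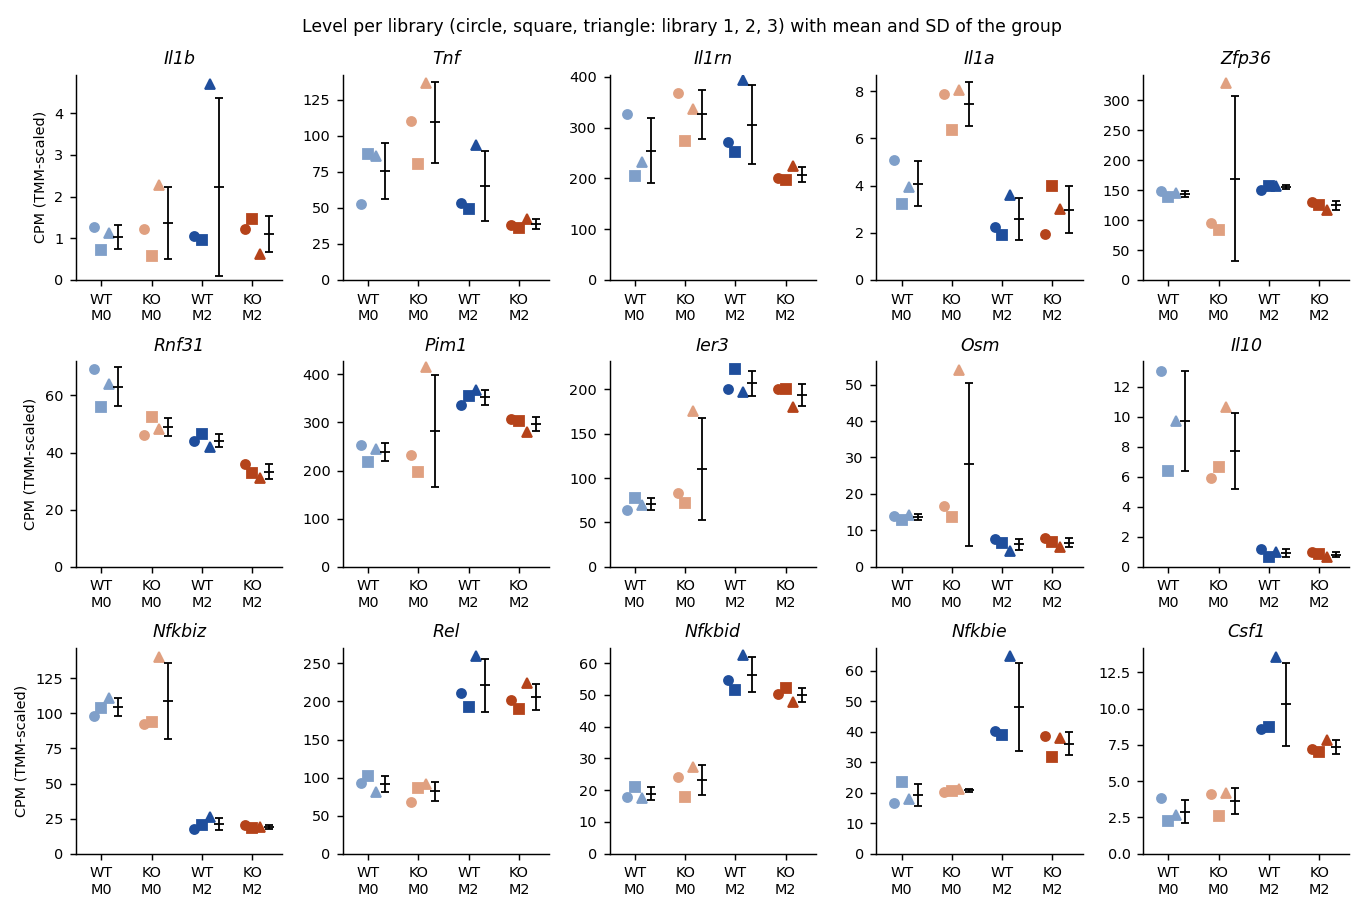
CPM of 15 members in each of the 12 libraries (circle, square and triangle for libraries 1, 2 and 3) with the mean and SD of each group of 3. Il10 and Nfkbiz fall and Rel, Nfkbid and Csf1 rise from M0 to M2, and in KO M0 the triangle of Zfp36 (328 CPM) and of Osm (53.9 CPM) lies far above the other 2 libraries.

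**Figure D4:**
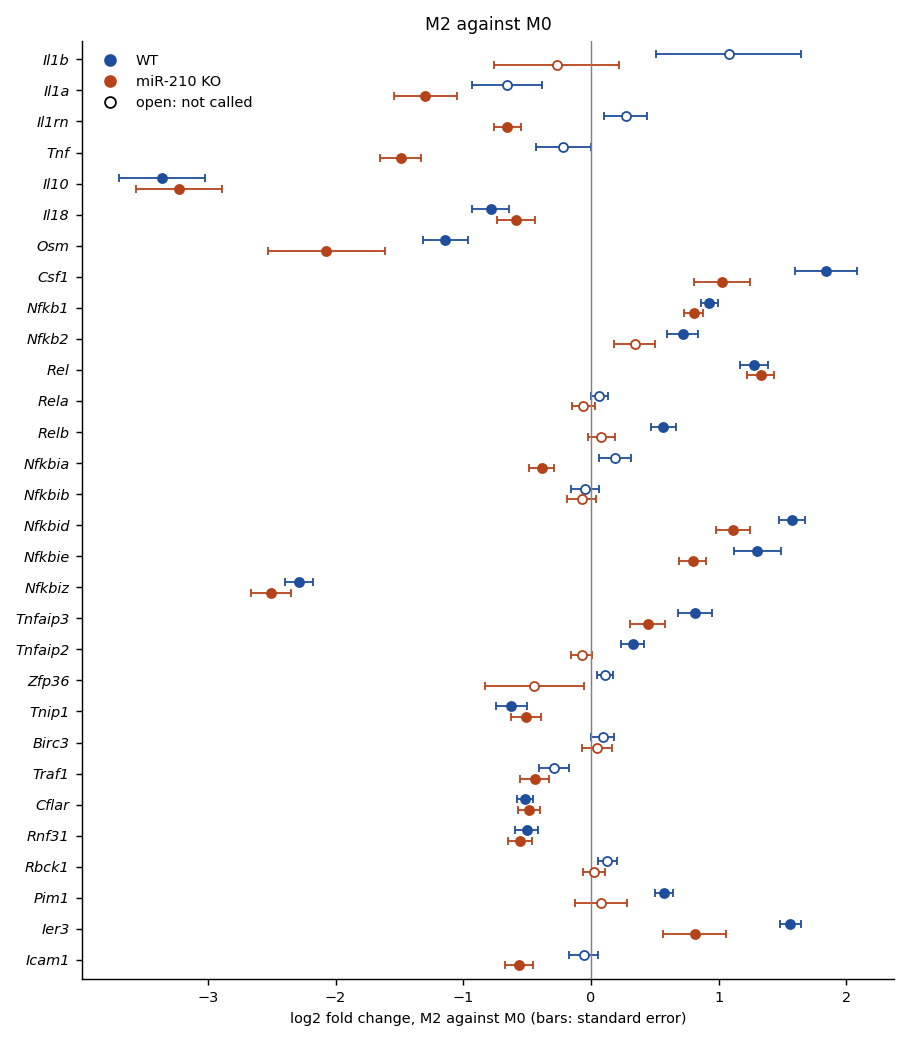
Log2 fold change of M2 against M0 with its standard error for the 30 members tested in WT (blue) and miR-210 KO (orange), filled where called. Il10 (-3.36 and -3.23) and Nfkbiz (-2.28 and -2.51) lie far to the left in both genotypes, and Csf1 (1.84 and 1.03) and Nfkbid (1.58 and 1.11) to the right.

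The members were set against 3 lists of other genes of the pathway, to which they do not belong. None of the 27 receptor and upstream signalling genes, the 20 feedback and co-regulator genes or the 8 to 9 cytokine receptor genes tested was called between the genotypes in M0 or in M2 (edgeR as above). Unadjusted p values under 0.05 numbered 3, 3 and 2 in M0 and 2, 4 and 1 in M2, and the median log2 differences in M2 were 0.02, -0.06 and -0.02, beside -0.15 for the members. Il6st, which encodes the gp130 subunit shared by the IL-6, LIF and oncostatin M receptors, had an adjusted p of 0.0313 in M2 at a log2 difference of -0.24 ± 0.05, inside the fold limit.

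With IL-4, 6 of the 27 upstream genes rose and 8 fell in WT, and 4 rose and 5 fell in miR-210 KO, beside 23.6% and 21.8% of all genes in WT and 18.5% and 18.1% in miR-210 KO. With lists this short, these counts are not read as a result about the list. Malt1, the gene of the paracaspase of the CARD-BCL10-MALT1 complex, rose by 3.25 ± 0.11 in WT and 2.80 ± 0.10 in miR-210 KO on the log2 scale, and Il1r1, the gene of the signalling IL-1 receptor, by 2.38 ± 0.31 and 2.45 ± 0.22. Irak3, the gene of the inhibitory kinase IRAK-M, fell by 1.88 and 2.21, and Map3k14, the gene of the noncanonical kinase NIK, by 1.03 and 0.60.

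Of the 20 feedback genes 7 rose and 7 fell in WT and 8 rose and 6 fell in miR-210 KO. Over all genes the shares were 23.6% higher and 21.8% lower in WT, and 18.5% and 18.1% in miR-210 KO. Tnip3 rose by 2.36 ± 0.15 and 1.61 ± 0.09, and Zc3h12a, the gene of the mRNA-cleaving regnase-1, by 1.54 ± 0.08 and 1.27 ± 0.15, while Pdlim2, which encodes a nuclear ligase for p65, fell by 1.21 and 1.64. Of the 9 cytokine receptor genes tested 3 rose and 5 fell in WT and 3 rose and 4 fell in miR-210 KO, beside the same shares of all genes. These counts too are not read as a result about either list. Il6st rose by 1.87 ± 0.09 and 2.07 ± 0.08, and Il18bp, the gene of a secreted IL-18 antagonist, fell by 1.97 and 1.62.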

How the data were processed

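RNA from 12 macrophage libraries was analysed. The authors trimmed the reads with Trimmomatic, removed duplicates with Picard, aligned to GRCm39 with STAR and made counts per gene and strand with featureCounts, which they deposited without normalization in 4 tables, one for each pair of groups. Removing duplicates can lower the counts of abundant genes. Normalized versions were not used here. Columns were assigned by group name, since their numbers are not tied to samples.

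Members and lists were chosen with earlier results of these data known. Symbols came from GENCODE. Genes were tested in R 4.3.3 with edgeR 4.0.16 (quasi-likelihood, TMM, filterByExpr) on the 6 libraries of a pair, or all 12 for the interaction, with Benjamini-Hochberg adjustment. Calls required an adjusted p under 0.05 with a change of more than 1.2-fold, and in polarization a protein-coding gene whose normalized count averaged over 10. The interaction had no limit on fold. The standard error is the log2 fold change over the root of F. Levels were CPM with TMM factors over 12 libraries, and RPKM per exon union. Marker sums were CPM without TMM factors. Code was tested on simulated data.

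Values per library are given for members called between genotypes, Il1b, Tnf, Il6, Zfp36, Rnf31 and Pim1, and the 5 largest rises and falls of each polarization comparison. Members in which 1 library stood apart, Tnfaip2, and the immediate early genes were chosen after their values were seen. Alternatives were the DESeq2 1.42.0 Wald test (also with a filter of 5 counts), RLE factors, no filter, all 12 libraries, other limits on fold or average count, the library number as a block, each library left out, and for levels the longest transcript. Promoter and microRNA sequences came from RefSeq tables of GRCm38.p6, and seed matches from GENCODE transcripts of GRCm39. No library repeated another within counting noise.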

Additional observations from a re-analysis of the deposited data

How the results depend on the processing

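Limits and settings bear mainly on the genotype comparisons. In M0, where edgeR called 0 members, the DESeq2 Wald test called 1 with either filter (Tnfaip2), no filter on low counts 7, the fit of all 12 libraries 2 (Rnf31 and Tnfaip2), and leaving out 1 library 0 to 1. In M2 the 3 calls became 7 with no filter on low counts, 0 in the fit of all 12 libraries, 0 with a |log2 fold change| over 1, and 0 to 4 when 1 library was left out. There were 0 calls without library 3 of WT M2 or library 2 of miR-210 KO M2, 1 without library 1 of either group, 2 without library 2 of WT M2 and 4, Tnf included, without library 3 of miR-210 KO M2. The DESeq2 Wald test called 2 of the 3 in M2, without Il1rn. With a |log2 fold change| over 1, polarization called 8 members in WT and 8 in miR-210 KO, and leaving out 1 library gave 18 to 20 and 18 to 23. The interaction called 9 members with no filter on low counts, 1 (Tnf) without library 2 of miR-210 KO M0 and otherwise 0. Over all genes these 2 settings called 341 of 28668 and 77 of 15054, against 0 in the main fit. Zfp36 turned to -0.69 in M0 and to 0.46 in the miR-210 KO polarization without library 3 of miR-210 KO M0, and with 1 library left out it ranged from -0.69 to 0.57 and from -0.78 to 0.46. The library number as a replicate block called 3 members in M0 (Il1a, Il1rn and Tnfaip2) and 7 in M2, and changed no count in the other comparisons. Over all genes the block called 284 in M0, against 65 without it, and 289 in M2, against 137 without it. No filter on low counts called 532 of 26255 genes in M0 and 360 of 26165 in M2. The fit of all 12 libraries called 248 of 14825 in M0 and 60 in M2. A |log2 fold change| over 1 left 40 genes in M2, 1446 in WT polarization and 1292 in miR-210 KO polarization. Leaving out 1 library gave 20 to 302 genes in M0 and 53 to 215 in M2. Same-numbered libraries correlated in their deviations at 0.029 to 0.403 between the M0 groups and at -0.103 to 0.113 between the M2 groups. Libraries of different numbers were not compared in this way, so whether the numbers pair the libraries was not settled. By the longest transcript, 9 of the 10 members highest per length were the same. Apart from the settings that leave out a library, which have fewer samples, the cause of these shifts was not tested.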
